A study of Rattus norvegicus with 18 samples.

Results

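C3, C4bpa and Cfi are the central component of the complement cascade and 2 of its regulators, and they were read in whole lung of rats exposed to cigarette smoke. They were taken by gene symbol, 3 of the 4616 named genes of the arrays, and each was read by 1 distinct probe that gave a value in all 18 samples. Rats breathed diluted smoke through the nose only, at 600 (high dose) or 300 (low dose) µg total particulate matter per litre, or conditioned fresh air, for 2, 7 or 13 weeks, and lungs were collected after a further 2, 6 or 20 hours. Each of the 18 smoke conditions had 1 sample, the pooled RNA of 4 rats, labelled with Cy5 and set on 2-colour arrays against the pooled RNA of 4 fresh-air rats, labelled with Cy3. High-dose and low-dose lungs of the same weeks and hours were set against the same air pool, 9 pools in all. The sources used here do not give the strain, sex or age of the rats.

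Complement is a chain of blood and tissue proteins that marks microbes and damaged cells for removal. C3, on which all activation routes meet, is cut into C3a, a mediator of inflammation, and C3b, which coats surfaces and builds the enzymes that cut more C3. Cfi encodes factor I, a serine protease that cuts C3b and C4b into inactive forms but needs a cofactor, and C4bpa encodes the alpha chain of C4b-binding protein, such a cofactor for C4b. The liver makes most of the circulating proteins, and lung epithelium and macrophages are known to make C3 as well.

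In the rat assembly GRCr8, C3 lies on chromosome 9 (2174412 to 2201339), C4bpa on chromosome 13 (44627959 to 44663552) and Cfi on chromosome 2 (221062206 to 221104790). The upstream sequence is shown for C3 and C4bpa, because binding sites of C/EBP, a factor of the acute phase response, are a textbook feature of such genes. Both sequences are from RefSeq (GRCr8), run 5′ to 3′ on the minus strand and end at the base before the outermost annotated start of the gene. Capitals mark matches to the C/EBP letters TTNNGNAA on either strand.
C3, chr9:2201340-2201589: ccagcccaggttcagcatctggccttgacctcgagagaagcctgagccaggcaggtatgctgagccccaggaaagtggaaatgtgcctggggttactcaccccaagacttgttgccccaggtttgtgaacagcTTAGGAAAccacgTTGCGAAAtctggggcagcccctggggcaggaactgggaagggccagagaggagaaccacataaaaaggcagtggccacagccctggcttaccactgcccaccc
C4bpa, chr13:44663553-44663721: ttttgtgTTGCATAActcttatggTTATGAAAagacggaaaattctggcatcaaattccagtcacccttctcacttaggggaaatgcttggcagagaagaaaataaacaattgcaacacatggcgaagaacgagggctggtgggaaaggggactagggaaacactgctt

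C3 held 2 matches, starting 117 and 104 bases before the start in the promoter table. C4bpa held 2 as well, 243 and 226 bases before its start in that table, which lies 81 bases inside the outermost one. The 250 bases before the start listed for Cfi held none, and that window begins 860 bases inside the span of the gene, so it is not shown. Of the 33469 promoters of the table, 37.2% hold at least 1 such match in the same window. Matches to the letters of STAT (TTCNNNGAA), AP-1 (TGANTCA), the antioxidant response element (TGACNNNGC) and the NF-kB consensus, searched on both strands, were found in none of the 3 windows, and 7.67%, 6.34%, 10.1% and 6.33% of all promoters hold one. The short xenobiotic response core GCGTG was found 1 time, in the window of C4bpa, 7 bases before its start, and 25.9% of all promoters hold it. A match describes the letters only.

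C3 was higher in smoke-exposed lung than in air lung in all 18 samples, by the largest mean ratio of the 3 genes at both doses, with its highest values 2 hours after exposure. All values that follow are log2 ratios of smoke over air, so that 1 means a doubling. At 2 hours the high-dose samples stood at 2.01, 2.49 and 2.79 after 2, 7 and 13 weeks, against 2.19, 2.42 and 1.77 in the low-dose samples. At 6 hours the values were 1.58, 2.24 and 1.29 at the high dose and 1.16, 0.99 and 0.86 at the low dose. At 20 hours they were 0.92, 1.21 and 1.56 at the high dose and 1.00, 0.56 and 0.53 at the low dose. The doses overlapped at 2 and 20 hours, and at 6 hours every high-dose value lay above every low-dose value. The share of all genes whose groups of 3 values separate in this way was not counted, so such separations describe the values only. The highest ratio, in the high-dose sample of 13 weeks and 2 hours, was 6.92-fold over air, and the lowest, in the low-dose sample of 13 weeks and 20 hours, was 1.44-fold.

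C4bpa was also above air in every sample, by a smaller ratio than C3 on average at both doses. At 2 hours its values were 0.64, 1.31 and 1.03 at the high dose after 2, 7 and 13 weeks, and 0.36, 0.99 and 0.91 at the low dose. At 6 hours they were 1.09, 1.58 and 1.46 at the high dose and 0.49, 0.50 and 0.76 at the low dose. At 20 hours the high-dose samples had 0.77, 1.19 and 1.00, against 0.24, 0.51 and 0.07 in the low-dose samples. The high-dose value was above its low-dose partner in all 9 pairs, and at 6 and 20 hours the doses did not overlap. How many of all genes show the same was not counted.

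Cfi completed the set, above air in all 18 samples. At 2 hours the high-dose samples had 1.37, 1.34 and 0.38 after 2, 7 and 13 weeks, and the low-dose samples 1.08, 0.43 and 0.08. At 6 hours the values were 0.64, 1.31 and 1.33 at the high dose and 0.77, 0.83 and 0.53 at the low dose. At 20 hours they were 1.23, 0.87 and 0.60 at the high dose and 0.65, 0.80 and 0.58 at the low dose. Both samples of 13 weeks and 2 hours were the lowest of their dose, and that combination held the highest C3 value of the high dose.

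**Figure D1:**
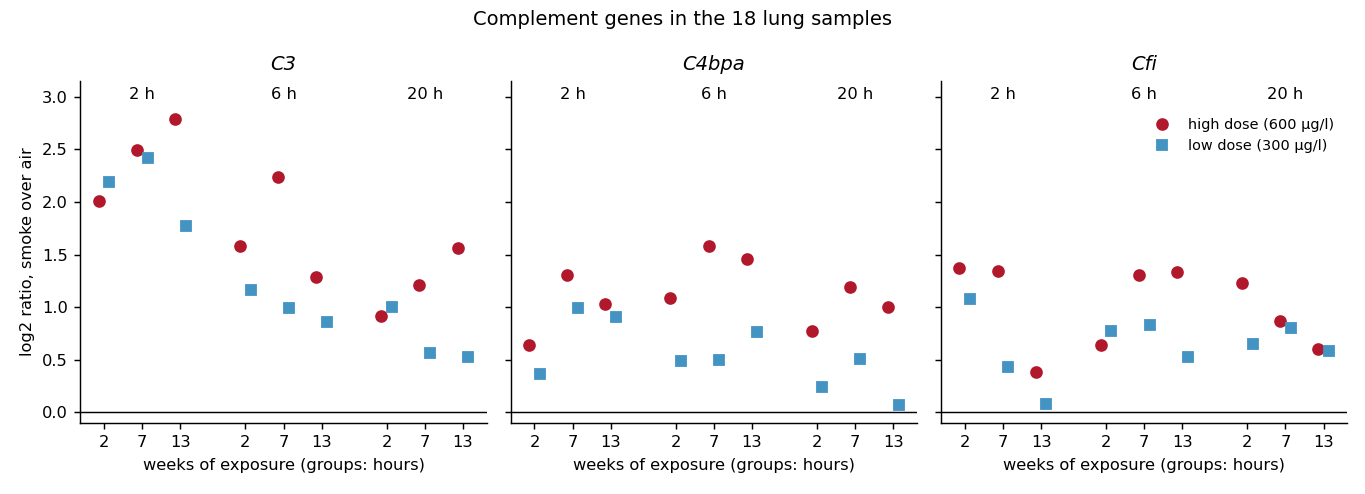
Log2 ratio of smoke-exposed over air lung (y axis) for C3, C4bpa and Cfi in each of the 18 samples, ordered by hours since the last exposure and, within hours, by weeks of exposure (x axis). Circles are the high dose and squares the low dose, 1 pooled sample each, and all points lie above 0, with C3 highest at 2 hours.

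Set against air, all 3 genes rose at both doses. At the high dose the mean log2 ratio was 1.79 ± 0.16 for C3 (SE, n = 9, a 3.45-fold rise, adjusted p = 5.95e-06), 1.12 ± 0.09 for C4bpa (2.17-fold, adjusted p = 2.29e-06) and 1.01 ± 0.10 for Cfi (2.01-fold, adjusted p = 2.24e-05) in limma's test of the mean against 0. At the low dose it was 1.28 ± 0.17 for C3 (2.42-fold, adjusted p = 0.000701), 0.54 ± 0.09 for C4bpa (1.45-fold, adjusted p = 0.00239) and 0.64 ± 0.08 for Cfi (1.56-fold, adjusted p = 0.000513). Among 4016 genes tested, 9.56% were called higher at the high dose and 3.51% at the low dose. By the size of the mean ratio, C3 ranked 4, C4bpa 12 and Cfi 16 at the high dose, and C3 ranked 5, Cfi 15 and C4bpa 29 at the low dose. The 3 low-dose calls were lost under an exact sign-flip permutation test adjusted over all genes, which gave each an adjusted p of 0.114. At the high dose the same test gave each an adjusted p of 0.0487, just under the threshold of 0.05, and called 4.78% of all genes higher. Each gene was above air in all 9 low-dose samples and so had the smallest p that this test can give before adjustment. At the low dose the test called 0% of the 4016 genes. No dye swap is named, so a constant dye effect of a probe and the mean difference from air cannot be told apart; it cancels in the comparisons of doses, hours and weeks. In whole lung, more cells that express a gene and more of its RNA per cell cannot be told apart either.

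The step between the doses passed the test for C4bpa, the cofactor chain. Within the 9 pairs that share an air pool, C4bpa lay 0.58 ± 0.09 log2 units higher at the high dose (SE, n = 9, a 1.5-fold step, adjusted p = 0.00714, higher in 9 of 9 pairs), with single differences between 0.12 and 1.08. C3 lay 0.51 ± 0.13 higher (1.43-fold, adjusted p = 0.124, 7 of 9 pairs), with differences between -0.18 and 1.25. Cfi lay 0.37 ± 0.10 higher (1.29-fold, adjusted p = 0.148, 8 of 9 pairs), between -0.13 and 0.91. Of 4016 genes, 0.149% were called higher at the high dose than at the low dose, 6 genes in all, C4bpa among them. The C4bpa call did not hold under every setting. Its adjusted p was 0.387 under the exact sign-flip test and 0.397 with limma's trend and robust prior. It was 0.231 without the 7 week samples, 0.0606 without the 13 week samples, 0.282 without the 6 hour samples and 0.249 without the 20 hour samples. C3 passed without the 2 week samples, at 0.74 and an adjusted p of 0.0425.

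The 3 genes could not be separated by the size of this step. The dose difference of C3 minus that of C4bpa averaged -0.07 ± 0.15 (SE, n = 9), that of C3 minus that of Cfi 0.14 ± 0.24, and that of C4bpa minus that of Cfi 0.21 ± 0.17. All 3 had an adjusted p of 0.660 in exact sign-flip permutation tests.

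**Figure D2:**
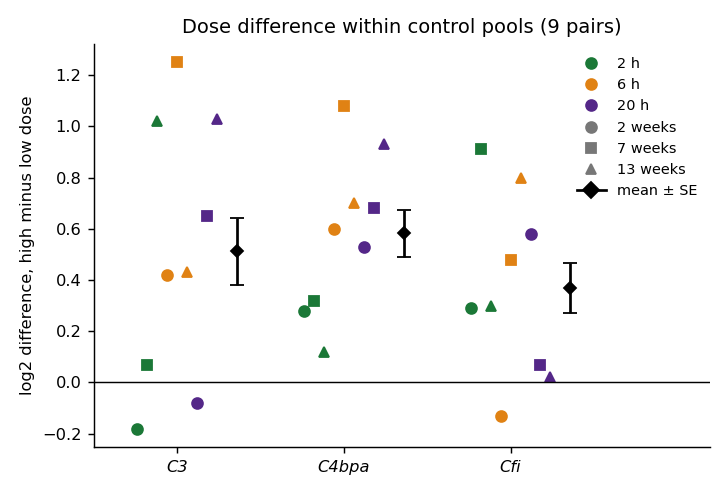
Difference in log2 ratio, high minus low dose, within each of the 9 pairs that share an air pool (y axis), for C3, C4bpa and Cfi (x axis). Colours give hours since exposure, shapes give weeks, and diamonds with bars are the mean ± SE; all 9 C4bpa points lie above 0, while 2 C3 points and 1 Cfi point lie below it.

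The ratio of C3 over air was highest soon after exposure and lower at the later hours. For this comparison both doses of an air pool were averaged, which leaves 3 pools at each hour. Each combination of weeks and hours had its own air pool. Over hours or weeks, a change in smoke lung and a change in air lung therefore cannot be told apart. C3 averaged 2.28 ± 0.18 at 2 hours, 1.35 ± 0.27 at 6 hours and 0.96 ± 0.08 at 20 hours (SD, n = 3 each). The 3 ranges, 2.10 to 2.46, 1.08 to 1.62 and 0.89 to 1.05, did not overlap, and the share of all genes with such ranges was not counted. Even at 20 hours the mean corresponded to 1.95-fold over air.

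The change of C3 over hours passed limma's F test with weeks as a covariate (adjusted p = 0.000586), rank 10 by p among 3994 genes, of which 1.6% were called. C3 was lower at 20 hours than at 2 hours by -1.32 ± 0.13 log2 units (SE, adjusted p = 0.000311) and lower at 6 hours than at 2 hours by -0.93 ± 0.13 (adjusted p = 0.00449). The step between 20 and 6 hours, -0.39 ± 0.13, did not pass (adjusted p = 0.226). Of the 3994 genes 0.726%, 1.45% and 0.926% were called, in either direction, for 20 against 2, 6 against 2 and 20 against 6 hours. An exact permutation of the hours over the 9 pools for C3 alone gave p = 0.00357, the smallest that this test can give. In the high-dose samples alone the spread between the hourly means was 1.2, with an adjusted p of 0.0660.

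Neither regulator passed the test over hours. C4bpa averaged 0.87 ± 0.34 at 2 hours, 0.98 ± 0.17 at 6 hours and 0.63 ± 0.19 at 20 hours (SD, n = 3 each), and its F test did not pass (adjusted p = 0.258). Cfi averaged 0.78 ± 0.51, 0.90 ± 0.18 and 0.79 ± 0.18 at the same hours (adjusted p = 0.876). Both genes had overlapping ranges at every pair of hours.

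**Figure D3:**
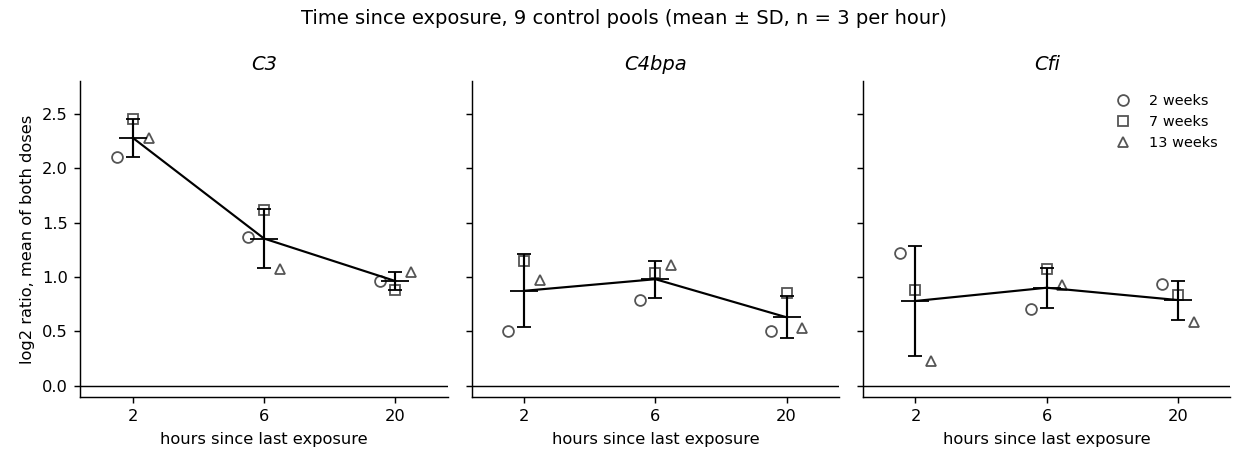
Log2 ratio of smoke over air, averaged over both doses of an air pool (y axis), at 2, 6 and 20 hours after the last exposure (x axis) for C3, C4bpa and Cfi. Open symbols are the 9 pools by weeks of exposure, and lines join the hourly means with bars of ± SD (n = 3); C3 stands at 2.28, 1.35 and 0.96, and the other genes stay between 0.63 and 0.98.

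Weeks of exposure did not pass the test for any of the 3 genes. C3 averaged 1.48, 1.65 and 1.47 after 2, 7 and 13 weeks (adjusted p = 0.911), C4bpa 0.60, 1.01 and 0.87 (adjusted p = 0.625) and Cfi 0.96, 0.93 and 0.58 (adjusted p = 0.875) in limma's F test with hours as a covariate. Of 3994 genes 0.125% were called over weeks. For C4bpa every pool of 7 weeks lay above every pool of 2 weeks, 0.85 to 1.15 against 0.50 to 0.79, a difference of 0.42 ± 0.11 with an adjusted p of 0.261. The share of all genes that separate so was not counted. The lowest Cfi pool, 0.23, was that of 13 weeks and 2 hours.

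The size of the dose step was also set against time. For C4bpa it averaged 0.24 ± 0.11 at 2 hours, 0.79 ± 0.25 at 6 hours and 0.71 ± 0.20 at 20 hours (SD, n = 3 each). For C3 it averaged 0.05 ± 0.32 after 2 weeks, 0.66 ± 0.59 after 7 weeks and 0.83 ± 0.34 after 13 weeks. Neither passed limma's F test adjusted over all genes (adjusted p = 1.00 and 0.999). No gene of the 3994 did, 0% over hours and 0% over weeks in limma, while 144 and 183 genes had an unadjusted p under 0.05.

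Within a sample, C3 exceeded both regulators on average. In such a difference of 2 log2 ratios a shift common to all genes of a sample cancels. Each gene was read by its own probe, so differences between genes and between probes cannot be told apart. C3 minus C4bpa averaged 0.67 ± 0.22 at the high dose (SE, n = 9, above 0 in 8 of 9 samples, adjusted p = 0.0352) and 0.74 ± 0.19 at the low dose (9 of 9, adjusted p = 0.0234) in exact sign-flip permutation tests adjusted over 6. C3 minus Cfi averaged 0.78 ± 0.26 at the high dose and 0.64 ± 0.26 at the low dose, each above 0 in 7 of 9 samples and each with an exact adjusted p of 0.0352. The regulators themselves could not be told apart, with C4bpa minus Cfi at 0.11 ± 0.15 at the high dose and -0.10 ± 0.17 at the low dose (exact adjusted p = 0.563 for both). Without the 2 hour samples, C3 minus C4bpa was 0.29 at the high dose and C3 minus Cfi was 0.47 at the high dose and 0.16 at the low dose, with exact unadjusted p of 0.156, 0.156 and 0.188. C3 minus C4bpa at the low dose, 0.42 without those samples, still passed (exact unadjusted p = 0.03125, the smallest that 6 samples can give).

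Over hours, C3 minus Cfi averaged 1.5 ± 0.59 at 2 hours, 0.45 ± 0.27 at 6 hours and 0.18 ± 0.24 at 20 hours (SD, n = 3 pools each), and this course passed an exact permutation test of the F statistic (adjusted p = 0.0429 over 6 tests). C3 minus C4bpa averaged 1.41 ± 0.17, 0.37 ± 0.35 and 0.33 ± 0.26 at the same hours, which did not pass after adjustment (exact p = 0.0286, adjusted p = 0.0857). For both regulators the lowest pool of 2 hours had a wider gap than the highest pool of 6 or 20 hours. C4bpa minus Cfi did not pass over hours (exact adjusted p = 0.886), and none of the 3 differences passed over weeks (exact adjusted p between 0.321 and 0.886).

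**Figure D4:**
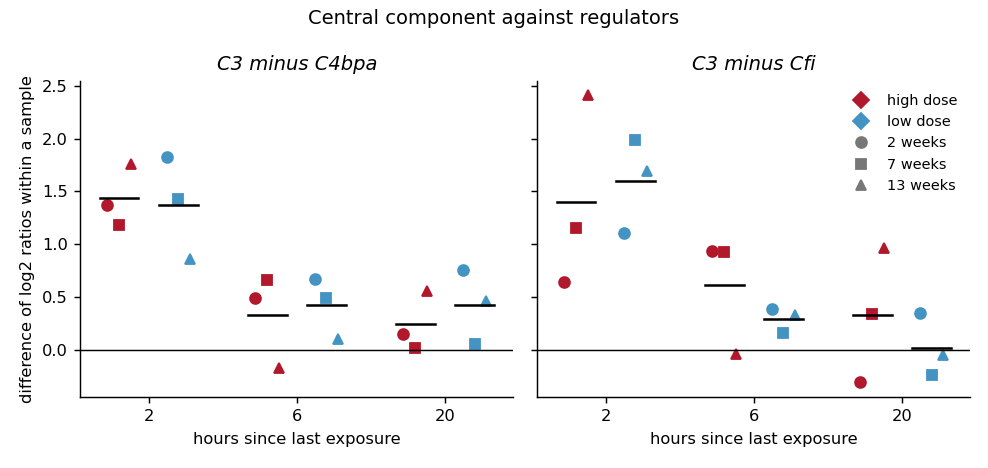
Log2 ratio of C3 minus that of C4bpa (left) or Cfi (right) within a sample (y axis) at 2, 6 and 20 hours after exposure (x axis). Red is the high dose, blue the low dose, shapes give weeks and black bars are means of 3 samples; over both doses the means are 1.41, 0.37 and 0.33 for C4bpa and 1.5, 0.45 and 0.18 for Cfi.

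Across the 9 air pools no correlation between the 3 genes passed. Pearson's r was 0.33 for C3 and C4bpa, -0.09 for C3 and Cfi and -0.13 for C4bpa and Cfi, with Spearman's rho of 0.38, 0.03 and -0.15. The adjusted p of all 3 values of r was 0.824 and those of rho were 0.938, 0.948 and 0.948, from exact permutations over 3 pairs. Leaving out the 2 pools farthest from the median of the first gene turned each sign, to -0.13, 0.69 and 0.39.

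Each of the 3 had other genes with a more similar pattern than the other two. As a description over the 18 samples, which share air pools in pairs, the 5 genes of the 3560 with complete values that were most like C3 were Tnfrsf12a, the receptor of the cytokine TWEAK (r = 0.89), Txnrd1, a thioredoxin reductase (r = 0.86), Krt7, a keratin of simple epithelia (r = 0.85), Chfr, a ubiquitin ligase of the mitotic checkpoint (r = 0.84), and Il24, a cytokine of the IL-10 family (r = 0.84). Of these, Tnfrsf12a stood at 0.63, 0.13 and -0.21 at 2, 6 and 20 hours (adjusted p = 0.00474) and Txnrd1 at 0.85, 0.34 and 0.10 (adjusted p = 0.00915). Krt7, Chfr and Il24 were not called over hours (adjusted p = 0.0541, 0.277 and 0.198 in limma's F test). For C4bpa they were Fetub, a fetuin (r = 0.84), Lcn2, an iron-siderophore binding protein of the acute phase (r = 0.81), Enpp2, which makes lysophosphatidic acid (r = 0.81), Tbxas1, thromboxane synthase (r = 0.80), and Noxo1, an organiser of the NADPH oxidase NOX1 (r = 0.79). Lcn2 averaged 2.65 at the high dose and 1.70 at the low dose, and Fetub 1.15 and 0.56, close to the 1.12 and 0.54 of C4bpa. For Cfi the values of r were lower, 0.75 for Lrp5, a co-receptor of Wnt signals, 0.74 for Grm4, a glutamate receptor, 0.72 for Got1, a transaminase, 0.70 for Cpt1b, which serves fatty acid import into mitochondria, and 0.69 for Bmp4, a growth factor. Their mean ratios at the high dose lay between -0.07 (Lrp5) and 0.36 (Grm4). The 3 genes had r of 0.51 (C3 and C4bpa), 0.27 (C4bpa and Cfi) and 0.08 (C3 and Cfi) with each other on the same scale.

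Among the 22 tested complement genes, the 3 had the highest mean ratios at both doses. The 3 and the list were chosen with earlier results of these data known, so this rank is a description only. A list of 49 complement genes ordered by role, the 3 included, had 26 measured and 22 tested. Mbl1, C8a, C8b and Itgam had too few values. Itgam had a median of 0.705 over 6 high-dose samples and 0.58 over 5 low-dose samples. C8a had 0.51 over 8 and 0.25 over 4, and Mbl1 0.295 over 6 and 0.21 over 2. C8b stood at -0.17 in 1 high-dose sample. At the high dose 10 of the 22 were called higher and 2 lower, with a median log2 ratio of 0.16, against 9.56% called higher and 7.64% lower and a median of 0.00 over all genes tested. Without the 3 genes, 7 of 19 were called higher and 2 lower, with a median of 0.09. At the low dose 6 of 22 were called higher and 0 lower, 3 of 19 without the 3 genes, while 3.51% of all genes were called higher and 1.44% lower. Under the exact sign-flip test 8 of the 22 were called higher and 0 lower at the high dose, against 4.78% and 3.24% of all genes, and no gene of the table was called in either direction at the low dose (0% higher and 0% lower). At an unadjusted p under 0.05 in limma, 10 of the 22 were higher and 0 lower at the low dose, against 10.01% and 9.16% of all genes, and 2 were lower at the high dose, against 13.9%.

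Among genes of initiation, the 3 chains of C1q, which binds antibody complexes and dying cells, rose at both doses. C1qa stood at 0.61 ± 0.09 at the high dose and 0.46 ± 0.07 at the low dose (SE, n = 9, adjusted p = 0.000342 and 0.00108), C1qb at 0.58 ± 0.08 and 0.41 ± 0.08 (adjusted p = 0.000211 and 0.00546), and C1qc at 0.55 ± 0.09 and 0.44 ± 0.08 (adjusted p = 0.00103 and 0.00364). C1s, a protease of the C1 complex, rose to 0.33 ± 0.07 at the high dose (adjusted p = 0.00698) and stood at 0.11 at the low dose. Its partner protease C1r stood at 0.07 and 0.05 and the lectin pathway protease Masp1 at 0.08 and 0.01, none of which passed. Fcnb, a ficolin of myeloid cells, fell to -0.46 ± 0.14 at the high dose (adjusted p = 0.0417) and stood at -0.18 at the low dose. With C3 it was the other complement gene called over hours, at -0.82, 0.24 and -0.39 (adjusted p = 0.00528).

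C4a, the component that the C4b-binding protein acts on once it is cut, stood at -0.12 ± 0.09 at the high dose and -0.08 ± 0.07 at the low dose and did not pass at either. C4bpb, the beta chain of the same binding protein, stood at 0.19 ± 0.08 at the high dose and -0.09 ± 0.06 at the low dose (adjusted p = 0.144 and 0.455); its difference from the alpha chain was not tested. The other fluid-phase regulators were Vtn (vitronectin), which fell to -0.24 ± 0.07 at the high dose (adjusted p = 0.0245), and Clu (clusterin) and C1qbp, at 0.09 and 0.14, which did not pass. Of 4 membrane regulators, Cd59b, found through its synonym Cd59 and known to block the last step of the membrane attack complex, rose to 0.22 ± 0.04 (adjusted p = 0.00356), while Cd46, Cd55 and Cr1l stood between 0.00 and 0.08 and did not pass. C8g, of the terminal components, rose to 0.22 ± 0.05 (adjusted p = 0.00558). Of the receptors, Itgad, matched through a synonym to the listed Itgax and therefore uncertain, rose to 0.26 ± 0.06 (adjusted p = 0.00972), and Cd93 stood at 0.07. These regulators, C8g and the receptors did not pass at the low dose. C4bpa was the one of the 22 called between the doses.

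**Figure D5:**
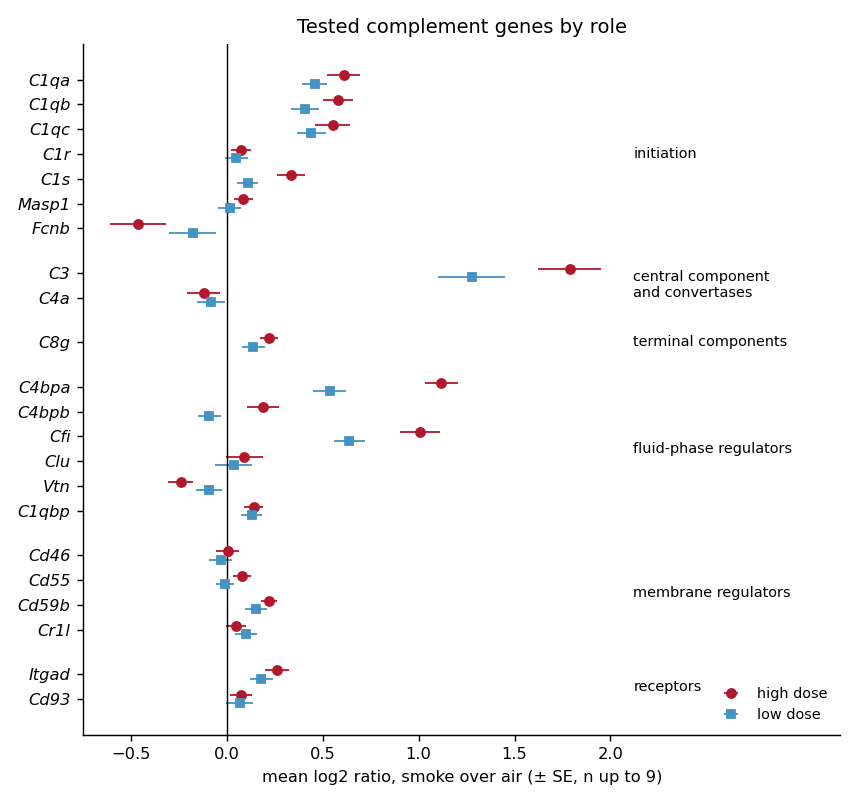
Mean log2 ratio of smoke over air with its SE (x axis, n up to 9 samples per dose) for the 22 tested complement genes grouped by role (y axis). Circles are the high dose and squares the low dose; C3, C4bpa and Cfi reach 1.79, 1.12 and 1.01 at the high dose, and the next highest is C1qa at 0.61.

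Marker genes of cell types moved with smoke beside these genes, and their part in the results above was not tested. The table holds ratios, so markers show a shift against air and cannot show that a sample is lung. The counts of markers stand against the 9.56% of all genes called higher and 7.64% called lower at the high dose by limma, and against 4.78% and 3.24% under the exact sign-flip test. Of 7 measured macrophage markers 5 rose and 2 fell at the high dose, led by Lgals3 (1.28), Cd68 (1.12), Ctsd (0.92) and Mmp12 (0.81); Adgre1 (-0.72) and Csf1r (-0.19), named after their values were seen, fell. Under the sign-flip test 5 rose and 1 fell. The median over the 7 ranged from 0.31 to 1.06 in high-dose samples and from 0.16 to 0.58 in low-dose samples. Sftpa1, Sftpd and Napsa, the 3 measured alveolar type II markers, rose at the high dose (0.54, 0.50 and 0.35) and at the low dose (0.30, 0.28 and 0.27). Their median per sample ranged from 0.18 to 0.79 at the high dose and from -0.01 to 0.45 at the low dose. Of 2 measured airway markers Foxj1 rose at the high dose (0.52), while 5 of 5 lymphocyte markers fell at the high dose and 1 of 5 at the low dose. At the low dose limma called 3.51% of all genes higher and 1.44% lower, and the sign-flip test called 0%. Under the sign-flip test the 3 alveolar markers and Foxj1 were called at the high dose, as were 2 of the 5 lymphocyte markers.

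Of 6 tested neutrophil markers 2 rose at the high dose, S100a9 (1.43) and Cxcr2 (0.55), and 2 fell, Fcnb and Retnlg (-0.43). Under the sign-flip test 0 rose and 1 fell. At an unadjusted p under 0.05 in limma 3 were higher and 2 lower, against 17.1% and 13.9% of all genes. Of the 6, 3 were called over hours, S100a8, S100a9 and Fcnb, each highest at 6 hours, while 1.6% of all genes were called. S100a8 stood at -0.68, 0.77 and 0.26 and S100a9 at 0.16, 1.66 and 1.04 at 2, 6 and 20 hours. S100a8 and S100a9 were also called over weeks (adjusted p = 0.000111 for both in limma's F test), as were 0.125% of all genes. Of 7 tested liver and plasma protein genes 0 were called at either dose, in limma or the exact sign-flip test, with a median of 0.04 at the high dose and 0.03 at the low dose, and albumin (Alb) stood at -0.06 and 0.04. The sign-flip test called 0% of all genes at the low dose, so its result there is not particular to these genes. At an unadjusted p under 0.05, limma had 2 of the 7 higher at the high dose, against 17.1% of all genes, and 0 at the low dose.

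Of genes known to induce C3, or to carry or restrain the signals that do, 2 of 12 tested rose at the high dose in limma, against 9.56% of all genes. Under the exact sign-flip test 0 of the 12 were called at the high dose, against 4.78% of all genes called higher and 3.24% lower. At the low dose 0 of the 12 were called too, but that test called 0% of all genes there. At an unadjusted p under 0.05 in limma, 5 of the 12 were higher at the high dose, against 17.1% of all genes. Il1b, which encodes interleukin-1 beta, rose to 0.47 ± 0.12 at the high dose and 0.39 ± 0.10 at the low dose (SE, n = 9, adjusted p = 0.0192 and 0.0383), and Il6st, the shared receptor chain of the interleukin-6 family, rose to 0.24 ± 0.07 at the high dose (adjusted p = 0.0251). Over hours 2 of the 12 were called, against 1.6% of all genes. Il1b stood at 0.14, 0.76 and 0.39 at 2, 6 and 20 hours (adjusted p = 0.0181), lowest at 2 hours. Stat3, a transcription factor of interleukin-6 signals, stood at 0.44, 0.00 and -0.28 (adjusted p = 0.0172), highest at 2 hours. Against air Stat3 was not called at the high dose (0.14, adjusted p = 0.422 in limma) or the low dose (-0.03, adjusted p = 0.904). A link between the course of either gene and that of C3 was not tested.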

How the data were processed

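The authors deposited 1 table of log2 ratios, smoke over air, with 11994 rows for 18 samples. Per the labels, equal amounts of RNA from 4 rats were pooled and amplified, labelled with Cy5 (smoke) or Cy3 (air) and hybridised to 2 arrays per sample. The sources used here name no scanner, background correction or normalization. That the ratio is smoke over air is taken from the channel labels. The log base fits ratios rounded to 2 decimals in 100% of the 257 values under -1, and sample medians lay between -0.01 and 0.01. Signal intensities were not used, so signal over background is unknown, and precision is limited by how many arrays there are.

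Genes were named from the platform annotation. Each probe fills 2 repeated rows, which were merged; 2 empty cells of C3 and 1 of Cfi were filled from the copy, and no cell differed. A gene is the mean of its distinct probes. The fits held 4016 genes, those measured at both doses in 6 or more of the 9 combinations of weeks and hours, and 3994 over time. With 1 pooled sample per condition, the 9 combinations of a dose stand in for replicates, so p-values measure the spread between them.

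R 4.3.3 with limma 3.58.1 (lmFit, eBayes, two-sided) tested the mean of a dose against 0, the 9 differences between doses, and hours and weeks on the 9 air-pool means, adjusting each for the other. P-values were adjusted by Benjamini-Hochberg over all genes tested, with a threshold of 0.05. Differences between the 3 genes and correlations were tested by exact permutation in Python 3.11.15 with scipy 1.17.1, two-sided apart from the F statistic, and adjusted over their own family. The limma and permutation scripts were tested on simulated data. Alternatives were other tests, priors, centring, filters and probes, a control-pool block, and leaving out combinations, weeks or hours. Genes named are the 3, the complement list, the 5 most alike by correlation, and up to 4 of a marker list. The members and lists were chosen with earlier results of these data known.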

Additional observations from a re-analysis of the deposited data

Results flagged for a closer look

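The ratio of C3 differed between hours after exposure in the test of the difference itself. It was lower at 6 hours than at 2 hours by -0.925 log2 units and lower at 20 hours than at 2 hours by -1.315 (SE 0.13 for both, adjusted p = 0.00449 and 0.000311 in limma). The effect of smoke on C4bpa differed between the doses, by 0.582222 log2 units, high minus low (SE 0.09, adjusted p = 0.00714). Single samples could not be set against replicates, since each condition had 1.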

How the results depend on the processing

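All 22 alternatives kept the high-dose rise of C3, C4bpa and Cfi (means 1.47 to 2.07, 0.99 to 1.26 and 0.93 to 1.13), with an adjusted p of 0.0487 for each under the exact sign-flip test. At the low dose 21 of 22 kept the rise. The exact sign-flip test over all genes gave 1.28, 0.54 and 0.64 with an adjusted p of 0.114, and called 0% of all genes there. Between the doses, C3 was 0.742 and called without the 2 week samples, and C4bpa stayed at 0.582 but was not called under the sign-flip test or the trend and robust prior, nor without the 7 week (0.527), 13 week (0.582), 6 hour (0.477) or 20 hour samples (0.517). Under the sign-flip test, under that prior, and without the 7 week or the 6 hour samples, 0 genes were called between the doses. C3 over hours spread 1.2 in high-dose samples alone, not called. Gaps between genes lost their call as follows, where with 6 samples the smallest exact p is 0.03125. C3 minus C4bpa, high dose, was 0.668, 0.693, 0.285 and 0.882 without the 2 week, 7 week, 2 hour and 20 hour samples. C3 minus Cfi, high dose, was 0.958, 0.767 and 0.615 without 2, 7 and 13 weeks and 0.470, 0.865 and 1.005 without 2, 6 and 20 hours; at the low dose it was 0.647, 0.637 and 0.627 without each of the weeks and 0.157 and 0.808 without 2 and 6 hours. C4bpa minus Cfi turned its sign to -0.03 at the high dose without 13 weeks, and to 0.082 and 0.048 at the low dose without 2 weeks and 20 hours. Correlations turned to -0.133, 0.686 and 0.391 without the 2 farthest pools, and that of C4bpa and Cfi to 0.176 at the high dose alone. Apart from steps with fewer samples, the cause was not tested. Genes called numbered 691 at the high dose (198 to 874 over alternatives), 199 at the low dose (0 to 272), 7 between doses (0 to 24), 64 over hours (18 to 80) and 5 over weeks (1 to 7). Each of the 3 genes has 1 probe, so testing probes singly changed no difference between them.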
